A study of Homo sapiens with 12 samples.

Results

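The mitochondrial genome of human cells encodes 37 genes, and all 37 were found among the 57820 genes listed in the count tables by taking every symbol that begins with MT-. They comprise 13 mRNA genes, 2 rRNA genes and 22 tRNA genes, all on chromosome M. Their RNA was followed in 12 libraries of PLC/PRF/5, a human hepatoma cell line of epithelial cells. The libraries form 3 groups of 4: control cells with the wild-type HKDC1 genotype, cells with HKDC1 knocked out (KO), and knockout cells with HKDC1 restored (KO_RES). HKDC1 encodes a hexokinase domain protein related to the enzymes that phosphorylate glucose, and the series sets its function in liver cancer as the question. The knockout and rescue libraries belong to 2 lines and carry a number within each line, so that KO 1_2 is library number 2 of knockout line 1. The labels name no agent for the knockout or the rescue, no oxygen level, and no meaning for the library number, and they do not say whether a line is 1 clone. They also do not say whether libraries of a group were separate cultures, so the p-values reflect the spread among these libraries alone, and that spread may be technical. In KO 1_2 and 2_2, and in KO_RES 1_1 and 2_1, the genotype field names the other of the KO and KO_RES groups. The titles were followed here, so KO and KO_RES mean libraries labelled so in the title.

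Mitochondrial DNA is transcribed on both strands into long RNAs that run through many genes, and tRNAs lying between the coding regions are cut out to release the mRNAs and rRNAs. The heavy-strand promoter drives the transcript with both rRNAs, 12 of the mRNAs and 14 of the tRNAs, and the light-strand promoter drives the transcript with MT-ND6 and 8 tRNAs. The mRNAs encode core subunits of respiratory complexes I, III and IV and of ATP synthase, the enzymes that make most of the ATP of a liver cell, and the rRNAs build the ribosome that translates them. Most of these mRNAs receive a short poly(A) tail, which in some of them completes the stop codon, whereas the MT-ND6 mRNA is known to lack one. The libraries were made with a stranded mRNA kit, which selects tailed RNA and keeps the strand, so reads on a gene's own strand and on its other strand are counted apart.

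The 3 tRNA genes that follow are shown because nearly all of the reads over them came from the other strand, that is, from the heavy-strand transcript that runs through them in the opposite direction. They are encoded on the light-strand transcript, their sequences are written 5′ to 3′ on the strand of the tRNA, and like all sequences below they come from the GENCODE release 29 transcripts on GRCh38, chromosome M.
MT-TS1: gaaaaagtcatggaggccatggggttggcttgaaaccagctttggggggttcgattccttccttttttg
MT-TY: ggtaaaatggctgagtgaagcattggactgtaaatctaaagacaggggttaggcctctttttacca
MT-TP: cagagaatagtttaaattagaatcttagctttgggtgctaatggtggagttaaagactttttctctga

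The last bases of 5 mRNA genes are shown because they differ in what the tail must supply. Capitals mark the stop codon, or the part of a stop codon, that the gene itself encodes. In 6 of the 13 mRNA genes the encoded stop codon is incomplete, and in 7 it is complete. MT-ND6 lies on the light-strand transcript and the other 4 on the heavy-strand transcript.
MT-CO1: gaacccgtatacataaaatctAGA
MT-CO3: tccatctattgatgagggtctT
MT-ND1: tccagcattccccctcaaaccTA
MT-ND3: aaaggattagactgaaccgaaT
MT-ND6: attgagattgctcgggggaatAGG

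MT-ATP8 is shown whole because it shares its last 46 bases (capitals) with the start of MT-ATP6, so that a read within them belongs to both genes and the 2 levels are uncertain where counting could not place it. MT-ND4L and MT-ND4 share 7 bases in the same way.
MT-ATP8: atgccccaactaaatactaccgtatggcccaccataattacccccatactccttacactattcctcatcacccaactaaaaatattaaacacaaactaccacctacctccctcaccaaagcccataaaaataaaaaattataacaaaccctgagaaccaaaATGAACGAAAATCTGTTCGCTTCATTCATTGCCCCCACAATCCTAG

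Libraries held between 36075411 and 71853616 gene counts on the gene's own strand, 19.8 to 21.1 times the count on the other strand. HKDC1 itself stood between 123.5 and 182.9 CPM (counts scaled to a fixed total of gene counts per library) in the controls, at 153 and 146.7 CPM in the KO libraries of line 1, at 91.2 and 49.3 CPM in those of line 2, and between 506.7 and 1546 CPM in the KO_RES libraries. The HKDC1 level in the libraries labelled KO of line 1 therefore lay within the control range, although a count over the whole gene does not test for a deletion inside it. Summed hepatocyte markers ranged from 11490 to 19510 CPM in the controls, from 4367 to 27040 CPM in KO and from 3204 to 32690 CPM in KO_RES. In both groups the libraries of line 2 had the low sums, below every control, and those of line 1 did not. Summed blood markers reached at most 0.323 CPM and endothelial markers at most 2.02 CPM. A count of 3 in a library, taken as the floor, was worth 0.0418 to 0.0832 CPM.

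The mitochondrial genes held 0.439% to 1.42% of the gene counts of a library. The most abundant transcripts were those of complex IV, the enzyme that passes electrons to oxygen. On a scale per length (CPM per kb of gene), MT-CO3 had the highest median level over the 12 libraries at 2370 CPM per kb, followed by MT-CO1 at 1430 CPM per kb and MT-CO2 at 999 CPM per kb. MT-CO3 exceeded MT-CO1, and MT-CO1 exceeded MT-CO2, in all 12 libraries.

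Next came MT-RNR2, the large ribosomal RNA, at a median of 504 CPM per kb, and the complex I subunit MT-ND3 at 364 CPM per kb. MT-RNR2 was above MT-ND3 in 10 libraries. Then MT-ATP6, the proton channel subunit of ATP synthase, had a median of 113 CPM per kb, MT-ND4 of 97.3, MT-ND4L of 93.6 and MT-CYB, the cytochrome b of complex III, of 87.9. These neighbours were not all separated: MT-ND4 was above MT-ND4L in 6 of 12 libraries and MT-CYB was above the small ribosomal RNA MT-RNR1, whose median was 70.1 CPM per kb, in 9. MT-RNR1 exceeded the complex I subunit MT-ND1, at 68.0 CPM per kb, in only 6 libraries. The lowest mRNA levels belonged to the complex I subunits MT-ND5 at 37.3, MT-ND2 at 32.1 and MT-ND6 at 21.9 CPM per kb and to the ATP synthase subunit MT-ATP8 at 22.6 CPM per kb, and MT-ATP8 was above MT-ND6 in 4 libraries. Both rRNA levels describe what a poly(A) kit retained, since rRNA is otherwise far more abundant than mRNA.

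MT-CO1, MT-CO2, MT-CO3 and MT-RNR2 together took between 86.5% and 89.8% of the mitochondrial counts of each library. By median, MT-CO1 held 33.7% of the mitochondrial counts, MT-CO3 31.6%, MT-RNR2 13.1% and MT-CO2 10.5%. At the other end MT-ND6 held 0.179% and MT-ATP8 0.0708%. A change in the summed level is thus mostly a change in these 4 RNAs.

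**Figure D1:**
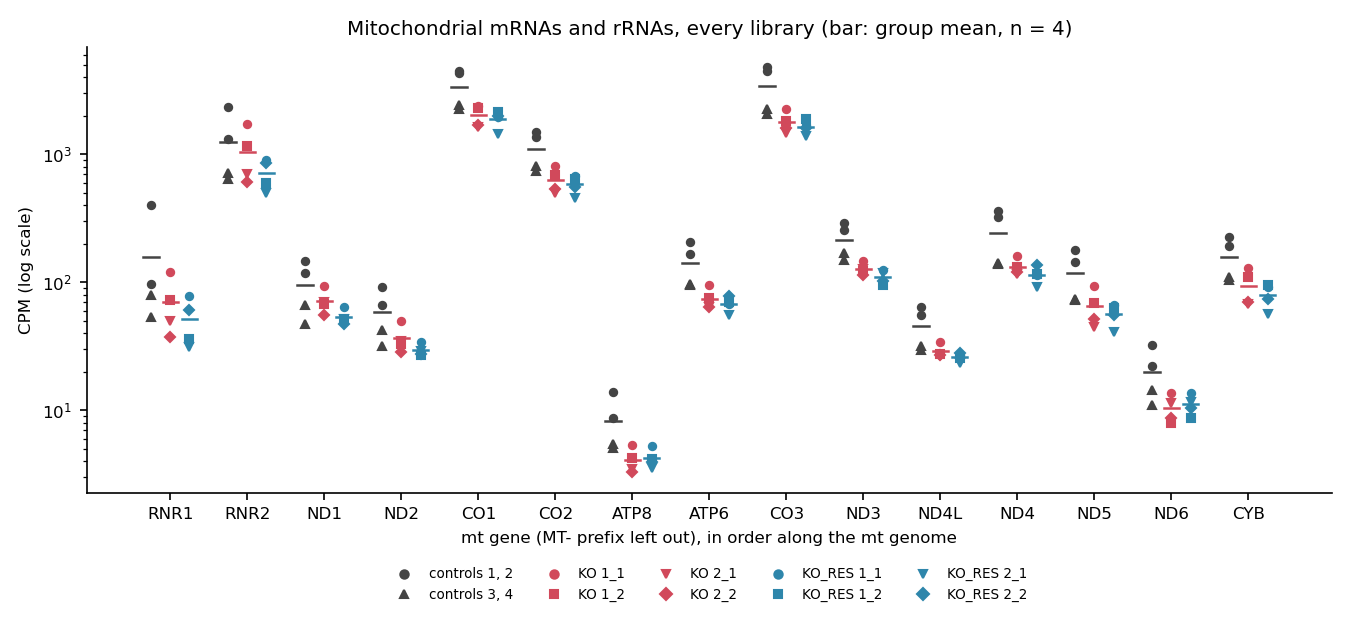
Level of the 13 mRNAs and 2 rRNAs on their own strand in each of the 12 libraries, on a log axis, with points coloured by group. Per kb of gene, MT-CO3, MT-CO1 and MT-CO2 had the highest medians at 2370, 1430 and 999 CPM per kb. Controls 1 and 2 lie above the other libraries for every mRNA.

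The 22 tRNA genes gave almost no reads on their own strand and held between 0.000404% and 0.00138% of the gene counts. In all 12 libraries 5 of them (MT-TC, MT-TK, MT-TG, MT-TR and MT-TL2) had a count of 0, which allows up to 3 counts in a library, and 11 never exceeded 3 counts in any library. More than 3 counts in every library were found for 4 tRNA genes, MT-TI, MT-TQ, MT-TT and MT-TP. Mean CPM reached 1 in a group for 3 of these, which carry isoleucine (MT-TI), threonine (MT-TT) and proline (MT-TP). MT-TT lies directly behind MT-CYB and had 5.6, 6.4, 2.3 and 2.6 CPM in controls 1 to 4, between 1.6 and 5.5 CPM in KO and between 1.7 and 3.3 CPM in KO_RES. MT-TI had group means of 0.819 CPM in the controls, 0.843 CPM in KO and 1.03 CPM in KO_RES. For both tRNAs the groups overlapped.

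For 7 tRNA genes, all encoded on the light-strand transcript, the other strand gave more reads than their own. Summed over the libraries, MT-TS1, the serine tRNA that lies behind MT-CO1 on the opposite strand, had 60 reads on its own strand and 33839 on the other, and MT-TP had 1357 and 34097. MT-TY, the tyrosine tRNA that lies just ahead of MT-CO1, had 71 and 13954. The MT-CO1 mRNA is known to keep an extension over the sequence antisense to MT-TS1. These reads overlap 2 annotated features if strand is not used: of the reads counted over a gene on both strands together, the unstranded column of the same tables lacked 100% for MT-TS1, 95.5% for MT-TY, 32.3% for MT-ND6 and 4.78%, or 80145 reads, for MT-CO1.

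The knockout and control groups were compared to ask whether mitochondrial RNA changed with HKDC1. All 13 mRNAs had a lower mean level in KO, with a median log2 fold change of -0.80 and a range from -1.02 to -0.41, against a median of 0.01 over the 19200 genes tested. Of the 20 members that passed the filter on low counts (13 mRNAs, 2 rRNAs and 5 tRNAs), 2 fell by edgeR's quasi-likelihood test at an adjusted p under 0.05, MT-ND3 and MT-ATP6, and none rose. Among all genes tested 3.41% fell and 2.87% rose. At an unadjusted p under 0.05 stood 12 of the 13 mRNAs, beside 22.1% of all genes. Since these RNAs are cut from shared transcripts, the 13 values are not 13 independent measurements. In bulk RNA, less RNA per cell and fewer cells of a kind cannot be told apart.

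MT-ND3, a membrane subunit of complex I, had 291.1, 254.1, 167.9 and 149.5 CPM in controls 1 to 4. It had 147.2, 122.7, 128.2 and 113.9 CPM in KO 1_1, 1_2, 2_1 and 2_2. Every KO library was below every control, though KO 1_1 was only just below control 4. The log2 fold change was -0.75 ± 0.20 (SE, n = 4 against 4, edgeR adjusted p = 0.0439). MT-ND3 was the only one of the 20 members tested whose groups did not overlap, beside 8.67% of all genes that were lower in KO without overlap.

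MT-ATP6 had 206.5, 167.5, 94.8 and 97.2 CPM in controls 1 to 4, and 94.8, 75.4, 64.4 and 63.7 CPM in KO 1_1, 1_2, 2_1 and 2_2. Here KO 1_1 and control 3 met at the same level. The log2 fold change was -0.92 ± 0.25 (SE, edgeR adjusted p = 0.0466). Both calls depended on single libraries: leaving out control 1, control 2, any 1 of the 4 KO libraries, or KO_RES 1_1, 1_2 or 2_1, which share the estimate of spread, left no member called.

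The other mRNAs showed the same arrangement, with controls 1 and 2 well above controls 3 and 4. MT-CO3, the most abundant of them, had 4777, 4427, 2259 and 2063 CPM in controls 1 to 4 and 2237, 1821, 1469 and 1606 CPM in the 4 KO libraries. MT-CO1, the catalytic subunit of complex IV, had group means of 3375 ± 1185 CPM in the controls and 2008 ± 395 CPM in KO (SD, n = 4 each). MT-CO2, which takes electrons from cytochrome c, had 1101 ± 388 and 634 ± 144 CPM, and MT-CYB 158.0 ± 60.2 and 94.0 ± 29.7 CPM. MT-ND6, the light-strand mRNA, had 32.2, 22.4, 14.4 and 11.02 CPM in controls 1 to 4 and 10.5 ± 2.64 CPM in KO. In each of these 5 genes the highest KO library exceeded the lowest control library. The remaining complex I mRNAs (MT-ND1, MT-ND2, MT-ND4, MT-ND4L and MT-ND5) and MT-ATP8 likewise overlapped.

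Of the rRNAs, MT-RNR1 had 402.2, 96.8, 53.6 and 80.1 CPM in controls 1 to 4 and between 37.7 and 120.2 CPM in KO. Control 1 stood far above every other library. Its log2 fold change was -1.17 ± 0.60 (SE, edgeR adjusted p = 0.281). MT-RNR2 had 2347, 1304, 637.2 and 712.5 CPM in the controls and 1735, 1152, 695.5 and 612.6 CPM in KO, a log2 fold change of -0.25 (edgeR adjusted p = 0.787), so neither rRNA passed the test.

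The control group held 2 levels, and the size of the difference depended on which of them was used. Against controls 1 and 2 alone, 14 members were lower in KO at an adjusted p under 0.05 and the median log2 fold change of the 13 mRNAs was -1.20. The share of all genes called is not given for that fit, so the 14 cannot be set against it. Against controls 3 and 4 alone, no member was called by edgeR and the median was -0.23. MT-ND3 then gave -0.31 (edgeR adjusted p = 0.38) and MT-ATP6 -0.36 (0.397). Controls 1 and 2 also had the highest shares of reads mapped to several places among the 12 libraries, at 11.6% and 10.4%, while the other 10 libraries had at most 8.73%. The part of that difference in the mitochondrial values was not tested. Of 9 hepatocyte markers 4 fell in KO (FGB, APOA1, TTR and ALB, all secreted liver proteins), none rose and the others were not called. Among all genes 3.41% fell. The median log2 fold change of the 9 markers was -1.10. It was -1.83 in line 1, where 4 fell, beside 9.74% of all genes, and -3.67 in line 2, where 2 fell, beside 5.24%. In summed marker level the KO libraries of line 2 lay below every control, and those of line 1 did not. The part of these markers in the mitochondrial values was not tested either.

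**Figure D2:**
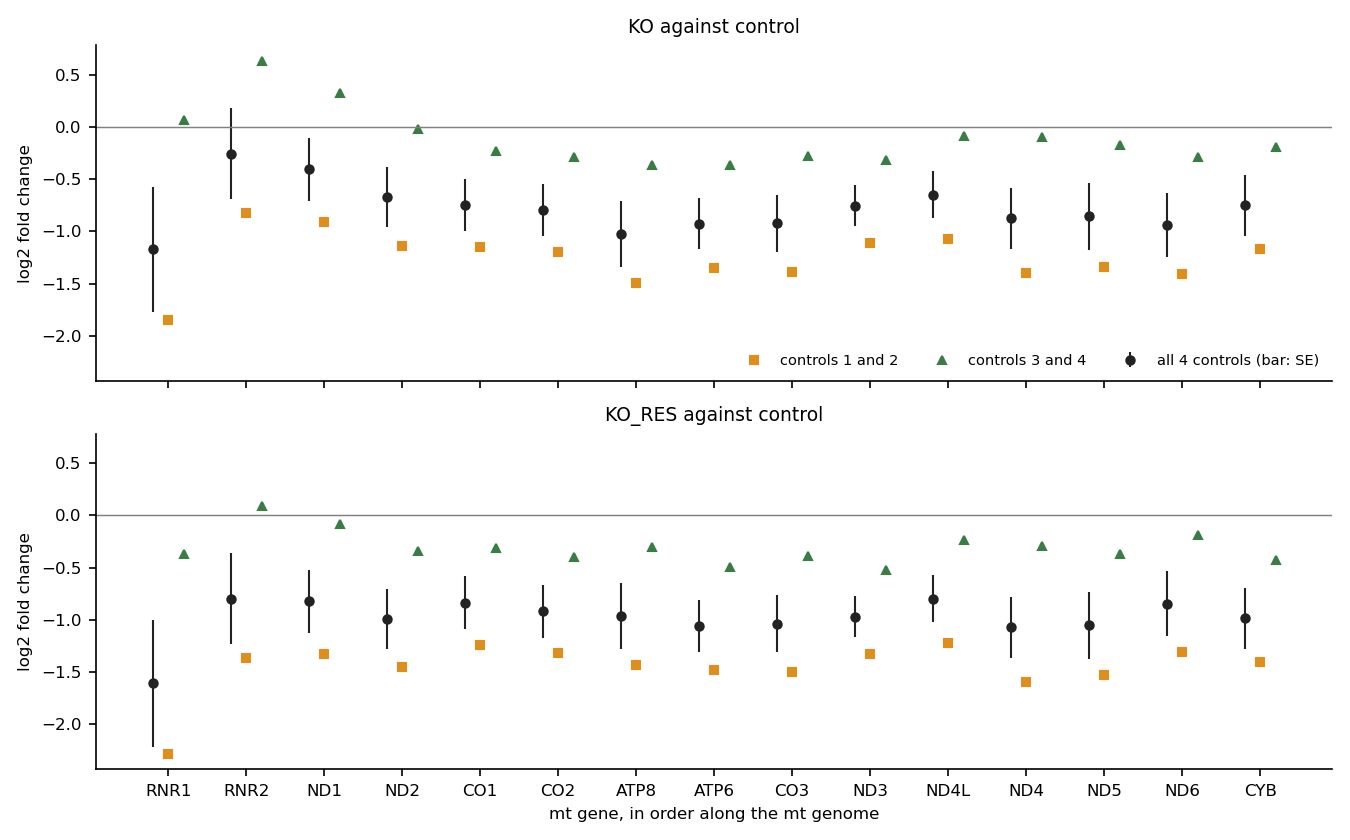
Log2 fold change for each mRNA and rRNA in KO against control and in KO_RES against control, with the standard error of the fit with all controls. In that fit all 13 mRNAs had negative values in both comparisons. At an edgeR adjusted p under 0.05 stood MT-ND3 and MT-ATP6 in KO, and MT-ND3, MT-ATP6 and MT-CO3 in KO_RES.

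No mitochondrial mRNA was higher in KO_RES, where HKDC1 was restored, than in KO at the test's threshold. KO_RES was compared with the same 4 control libraries, so its values stand beside those of KO without being independent of them. The 13 mRNAs were lower than in the controls, with a median log2 fold change of -0.97 and a range from -1.07 to -0.80, and all 13 had an unadjusted p under 0.05, beside 21.1% of all genes. At an adjusted p under 0.05, 3 members fell, MT-ND3, MT-ATP6 and MT-CO3, beside 3.29% of all genes. Leaving out single libraries gave between 0 and 10 called members, with 0 when control 2 or KO_RES 1_2 was left out.

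MT-ND3 had 123.8, 96.0, 118.7 and 101.6 CPM in KO_RES 1_1, 1_2, 2_1 and 2_2, all below the lowest control at 149.5 CPM. Its log2 fold change was -0.97 (edgeR adjusted p = 0.0169). MT-ATP6 had 67.1, 70.4, 55.6 and 78.3 CPM, also all below the controls, with a log2 fold change of -1.06 (edgeR adjusted p = 0.0293). MT-CO3, a core subunit of complex IV, had 1695, 1897, 1392 and 1598 CPM, again with no overlap, and a log2 fold change of -1.04 (edgeR adjusted p = 0.0478). Against controls 3 and 4 alone the 3 values were -0.53, -0.50 and -0.39, and none passed the threshold.

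In 9 of the mRNAs (MT-CO1, MT-CO2, MT-CO3, MT-ATP6, MT-ND3, MT-ND4, MT-ND4L, MT-ND5 and MT-CYB) every KO_RES library was below every control, beside 7.46% of all genes. The summed share of the 37 genes in the gene counts was 0.991 ± 0.395% in the controls, 0.627 ± 0.137% in KO and 0.559 ± 0.0837% in KO_RES (SD, n = 4 each). Its log2 difference was -0.75 between KO_RES and control, where the groups did not overlap (two-sided exact permutation p = 0.0286, the smallest that 4 against 4 allows, 0.0571 after adjustment over 4 shares). Between KO and control it was -0.60 (exact permutation test, adjusted p = 0.381). The split of the controls shows in the share too, which was 1.42% and 1.23% in controls 1 and 2 and 0.667% and 0.645% in controls 3 and 4, where KO 1_1 (0.798%) and KO 1_2 (0.671%) were above both of the latter.

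Between KO_RES and KO, edgeR called no gene of the 19200, mitochondrial or not, at an adjusted p under 0.05 (0%), and DESeq2 called no member. HKDC1 itself, higher in every KO_RES library than in every KO library, was thus not called by edgeR either. The absence of calls in this fit therefore does not show that nothing changed. At an unadjusted p under 0.05 stood 473 genes (2.46%) and none of the 20 members tested. The 13 mRNAs had a median log2 difference of -0.15, with a range from -0.42 to 0.09 and 11 of them lower in KO_RES. For all 20 members tested the groups overlapped, beside 0.984% of all genes that were lower and 0.682% that were higher in KO_RES without overlap.

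KO and KO_RES libraries of the same line and number deviated together from their group means, and a fit with line and number as a pair gave a narrower spread. That fit called 8 of 18293 genes (0.0437%) and still no member, and 3 members had an unadjusted p under 0.05, beside 13.7% of all genes. The lowest was MT-ND1, a core subunit of the membrane arm of complex I, with 93.9, 67.6, 70.2 and 55.3 CPM in KO 1_1, 1_2, 2_1 and 2_2 and 63.6, 51.7, 51.8 and 47.6 CPM in the matching KO_RES libraries. It was lower in KO_RES in 4 of 4 pairs, with a log2 difference of -0.40 ± 0.07 (SE, edgeR adjusted p = 0.134). The other two were MT-ND2 at -0.29 and MT-ND3 at -0.21 (edgeR adjusted p = 0.245 for both).

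The 2 knockout lines were then taken apart. In line 1 no member passed edgeR's test against the controls, where 18.1% of all 20559 genes tested did, and DESeq2 called none either. The 13 mRNAs had a median log2 fold change of -0.55, and 4 of 21 members tested had an unadjusted p under 0.05, beside 32.4% of all genes. In line 2 the median was -1.03 and 3 members fell, beside 5.24% of all genes. These were MT-CO2 (log2 fold change -1.09, edgeR adjusted p = 0.0357), MT-CYB (-1.19, 0.0311) and MT-ATP6 (-1.14, 0.0427).

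MT-CO2 had 807.7 and 694.6 CPM in the KO libraries of line 1 and 499.7 and 533.5 CPM in those of line 2, against 1505, 1360, 803.5 and 737.3 CPM in controls 1 to 4. Only line 2 lay below all controls. Against controls 3 and 4 alone, MT-CO2 (-0.58, edgeR adjusted p = 0.0395) and MT-CYB (-0.64, 0.0226) still fell in line 2, whereas MT-ATP6 gave -0.59 (0.0558). MT-CYB had 128.3 and 109.4 CPM in line 1 and 68.1 and 70.4 CPM in line 2, and its lowest control had 105.1 CPM.

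The difference between the lines themselves was not called for any member by edgeR or DESeq2, while 12% of all genes were. At an unadjusted p under 0.05 stood 2 members, beside 25.9% of all genes. All 13 mRNAs had lower values in line 2, with a median log2 difference of -0.40. The rescue libraries set against the KO libraries of their own line gave median mRNA differences of -0.30 in line 1 and -0.05 in line 2. No member was called by edgeR or DESeq2 in either, beside 0.195% and 0.00486% of all genes. At an unadjusted p under 0.05 stood 0 members in either, beside 6.5% and 1.45% of all genes.

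Among the 8 KO and KO_RES libraries, those numbered 2 were compared with those numbered 1 within line and group, because the genotype field divides these libraries by number. This comparison did not use the controls. On their own strand 5 members fell in number 2, beside 10.2% of all 19766 genes tested, and none rose, beside 9.82%. They were the complex I mRNAs MT-ND1 (log2 difference -0.32 ± 0.08, SE, edgeR adjusted p = 0.0167), MT-ND2 (-0.34 ± 0.09, 0.0225), MT-ND3 (-0.27 ± 0.08, 0.0281) and MT-ND6 (-0.51 ± 0.12, 0.0136), and the tRNA gene MT-TP (-0.96 ± 0.24, 0.0174). MT-ND6 and MT-TP are both encoded on the light-strand transcript. Leaving out 1 library at a time gave between 1 and 7 called members, with 1 or 2 when a KO library, KO_RES 1_1 or KO_RES 1_2 was left out.

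MT-ND6 had 13.7 and 8.0 CPM in KO 1_1 and 1_2, and 11.4 and 8.7 CPM in KO 2_1 and 2_2. In KO_RES 1_1 and 1_2 it had 13.8 and 8.7 CPM, and in KO_RES 2_1 and 2_2 it had 11.7 and 10.4 CPM. Number 2 was the lower of the pair in 4 of 4. MT-TP had 2.0 and 0.6 CPM, 2.3 and 1.1 CPM, 2.2 and 1.7 CPM, and 2.1 and 1.3 CPM in the same 4 pairs, again lower in number 2 each time.

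The other 9 mRNAs were not called: MT-CO1 had a log2 difference of 0.13, MT-CO2 of 0.02, MT-CO3 of 0.04, MT-CYB of 0.05, MT-ND4 of 0.07, MT-ND5 of 0.02, MT-ATP6 of 0.04, MT-ND4L of -0.04 and MT-ATP8 of -0.16. Relative to the 12 heavy-strand mRNAs, MT-ND6 made 0.220% and 0.146% in KO 1_1 and 1_2 and 0.273% and 0.199% in KO 2_1 and 2_2. The shares were 0.280% and 0.166% in KO_RES 1_1 and 1_2 and 0.310% and 0.220% in KO_RES 2_1 and 2_2. The mean log2 difference was -0.57 and it was negative in 4 of 4 pairs. The two-sided exact sign-flip permutation p was 0.125, the smallest that 4 pairs allow, and 0.216 after adjustment over 19 ratios. In controls 1 to 4 the ratio was 0.262%, 0.195%, 0.231% and 0.192%, which overlapped with both KO and KO_RES.

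**Figure D3:**
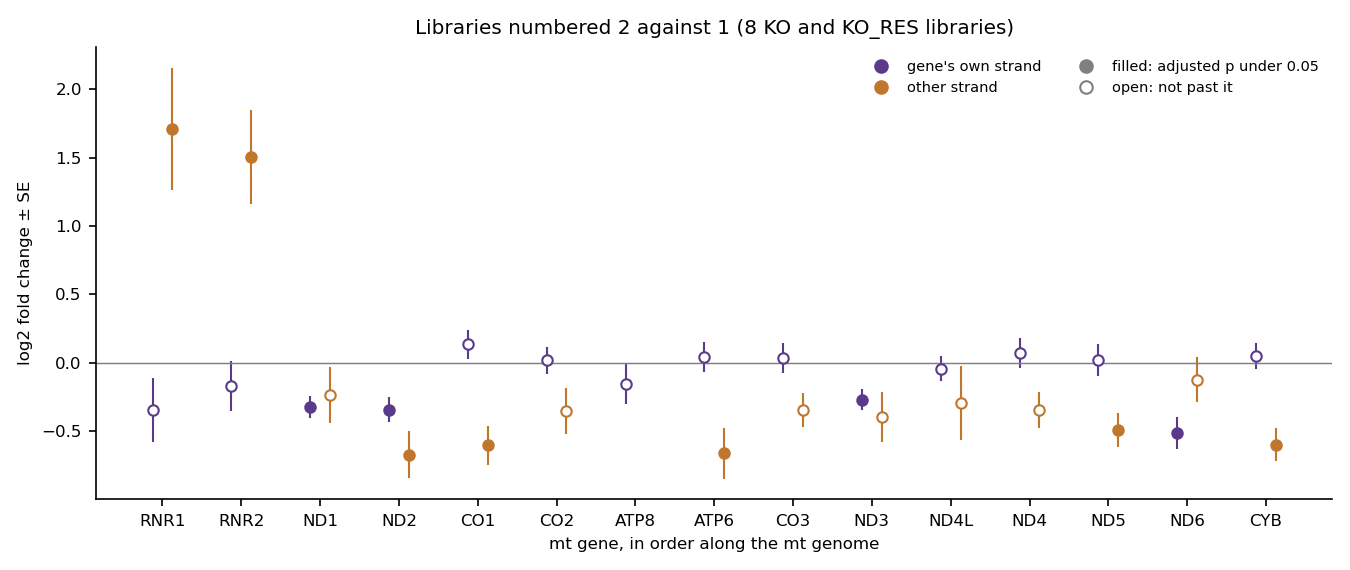
Log2 difference of number 2 from number 1 with its standard error for each mRNA and rRNA in the 8 KO and KO_RES libraries, on the gene's own strand and on its other strand, with filled points at an edgeR adjusted p under 0.05. On the own strand MT-ND1, MT-ND2, MT-ND3 and MT-ND6 have negative values between -0.27 and -0.51. On the other strand the mRNAs have negative values and both rRNAs positive ones, at 1.71 and 1.51.

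The other strand of the mitochondrial genes was read next. For the heavy-strand genes it can hold RNA of the light-strand transcript, and for MT-ND6 RNA of the heavy-strand transcript. It can also hold reads whose strand was not kept, and their part was not tested. Summed over the 12 libraries, the other strand gave 36.4% of the reads over MT-ND5, 26.4% over MT-RNR1, 25.6% over MT-ND6 and 20.97% over MT-CYB. It gave 8.87% over MT-RNR2, 6.56% over MT-ND4 and 6.02% over MT-ND2, and between 1.498% and 2.43% over MT-ND1, MT-ND3, MT-ND4L, MT-ATP6 and MT-ATP8. The 3 complex IV mRNAs had the lowest shares, 0.488% for MT-CO2, 0.417% for MT-CO3 and 0.399% for MT-CO1. Among the 14024 genes outside the mitochondrial genome with at least 1000 reads over the libraries, the median was 0.272% and the third quartile 2.06%. Of these genes 10.4% exceeded 20%. The shares of the 3 complex IV mRNAs, MT-ND3 and MT-ATP8 lay between that median and that quartile. MT-ND5, MT-ND6, MT-TE and MT-CYB lie in that order on the genome, and the MT-ND5 mRNA is known to extend over the antisense of MT-ND6.

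**Figure D4:**
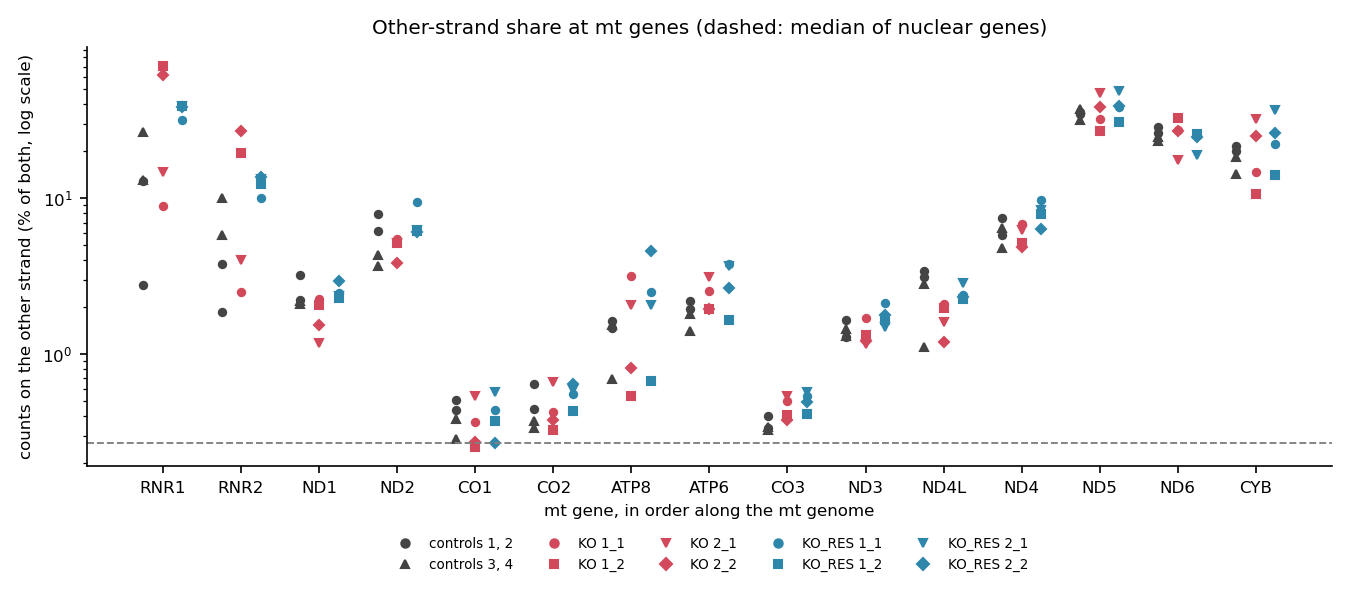
Share of reads over each mRNA and rRNA gene that came from its other strand, in percent on a log axis, in each of the 12 libraries, with points coloured by group. MT-ND5, MT-RNR1, MT-ND6 and MT-CYB lie at the top and MT-CO1, MT-CO2 and MT-CO3 at the bottom, and the rRNAs show a wide scatter within the KO group.

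Against the controls, the other-strand reads over the mRNA genes had lower means in KO, as the own-strand reads did: all 12 mRNA genes that passed the filter had negative log2 fold changes, with a median of -0.92. None of the 22 members tested was called by edgeR in KO, beside 1.24% of all 10252 genes tested on this strand. At an unadjusted p under 0.05 stood 15 of them, beside 15.1% of all genes, and 2 of the 15 were the rRNA genes, whose values were positive (2.12 for MT-RNR1 and 1.44 for MT-RNR2). In KO_RES MT-TP fell, with a log2 fold change of -0.89 (edgeR adjusted p = 0.0437), beside 0.946% of all genes, and MT-TS1 gave the same value at an adjusted p of 0.0505. Mean other-strand levels over MT-TP were 67.8 CPM in the controls, 42.5 CPM in KO and 38.0 CPM in KO_RES, and over MT-TS1 66.7, 42.1 and 37.8 CPM. For both tRNAs the mean was highest in the controls and lowest in KO_RES. The reads over MT-TS1 are not a separate measurement. The unstranded column lacked 100% of them, so each also touched another annotated gene.

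Between number 2 and number 1 the other strand showed opposite differences over the mRNAs and the rRNAs. Over the mRNA genes all 12 values were negative, with a median of -0.38, and 5 fell: MT-CYB (-0.60, edgeR adjusted p = 0.00996), MT-CO1 (-0.60, 0.0196), MT-ND2 (-0.67, 0.0311), MT-ND5 (-0.49, 0.0313) and MT-ATP6 (-0.66, 0.0446). Both rRNA genes rose, MT-RNR2 by 1.51 (edgeR adjusted p = 0.0188) and MT-RNR1 by 1.71 (0.0325). Among all 10994 genes tested 1.75% fell and 2.93% rose. Leaving out KO 1_1 or KO 1_2 left none of these 7 members called, and leaving out KO 2_1 or KO 2_2 left 2. As a share of the reads over the gene, the other strand was lower in number 2 in 4 of 4 pairs at MT-ND2, MT-CO1, MT-CO3, MT-ATP6, MT-ND4, MT-ND4L, MT-ND5 and MT-CYB. At MT-ND6, where the other strand is that of the heavy-strand transcript, the share was higher in 4 of 4. Each of these genes had a two-sided exact sign-flip permutation p of 0.125, the smallest that 4 pairs allow, and 0.216 after adjustment. They share transcripts and the same 4 pairs, so they are not independent. At MT-ND1, MT-ND3, MT-CO2 and MT-ATP8 the direction differed between pairs.

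The rRNA difference came from the knockout libraries. Reads antisense to MT-RNR1, the 12S ribosomal RNA of the small subunit, stood at 11.5, 14.4, 19.6 and 12.2 CPM in controls 1 to 4. They stood at 11.7 CPM in KO 1_1 and 8.66 CPM in KO 2_1, and at 173.5 CPM in KO 1_2 and 60.6 CPM in KO 2_2. The KO libraries numbered 1 were thus within or below the control range and those numbered 2 were far above them. In KO_RES 1_1, 1_2, 2_1 and 2_2 the values were 36.4, 23.5, 20.2 and 38.1 CPM, above every control, with no common order by number.

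Reads antisense to MT-RNR2, the 16S ribosomal RNA of the large subunit, were 44.9, 51.3, 71.5 and 44.1 CPM in the controls. In KO 1_1, 1_2, 2_1 and 2_2 they were 45.0, 277.0, 29.03 and 228.0 CPM, the same arrangement as for MT-RNR1. In KO_RES 1_1, 1_2, 2_1 and 2_2 they were 101.5, 84.0, 77.4 and 137.2 CPM, again all above the controls. On its own strand MT-RNR1 had 120.2 and 72.6 CPM in KO 1_1 and 1_2 and 50.3 and 37.7 CPM in KO 2_1 and 2_2. The antisense reads therefore made up 8.90% and 14.7% of all reads over MT-RNR1 in KO 1_1 and 2_1, but 70.5% and 61.7% in KO 1_2 and 2_2, more than the sense reads. The count behind the highest value was 7409 antisense reads.

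A test of whether the number difference itself differed between KO and KO_RES was added after these values were seen. On the other strand it called 2 of 10994 genes (0.0182%), and these were MT-RNR1 and MT-RNR2. The number difference in KO minus that in KO_RES was 3.27 ± 0.35 for MT-RNR1 (SE, edgeR adjusted p = 1.19e-06) and 2.58 ± 0.31 for MT-RNR2 (9.31e-06). In KO alone the log2 differences were 3.35 (edgeR adjusted p = 3.37e-10) and 2.79 (7.36e-10), where 0.227% of all genes were called, and in KO_RES alone 0.08 (0.913) and 0.21 (0.677), where 3.07% were called. Each of these differences rests on 2 libraries against 2 within a group. On the own strand the same differences were -0.50 for MT-RNR1 and -0.46 for MT-RNR2 and were not called (edgeR adjusted p = 1 for both). KO 1_2 and KO 2_2 are also 2 of the 4 libraries whose genotype field goes against the title, and what the number marks is not given in the sources used here, so number, genotype field and any difference in handling cannot be told apart.

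**Figure D5:**
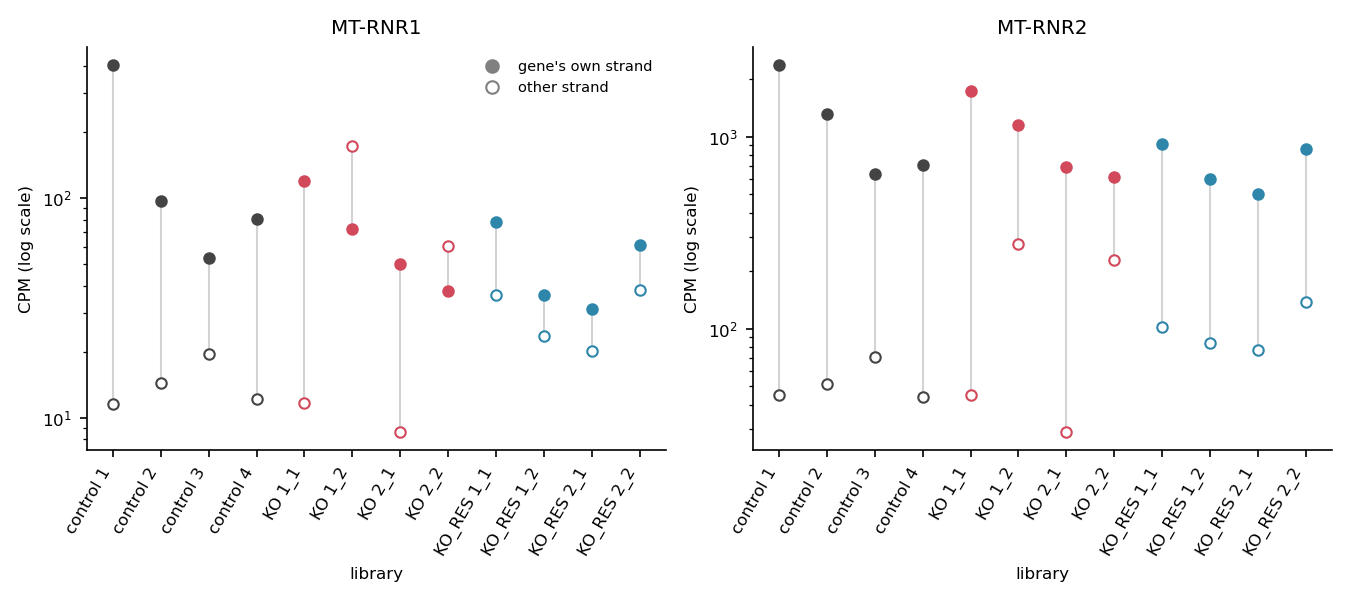
Reads over MT-RNR1 and MT-RNR2 on the own strand and on the other strand in each of the 12 libraries, in CPM on a log axis. On the other strand KO 1_2 and KO 2_2 stand above all other libraries at 173.5 and 60.6 CPM for MT-RNR1 and 277.0 and 228.0 CPM for MT-RNR2, while on their own strand they lie among the other libraries.

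By line, the antisense MT-RNR1 reads in KO line 1 were higher than in the controls (log2 fold change 2.63, edgeR adjusted p = 0.0371, beside 2.62% of all genes that rose), where KO 1_2 holds most of them. In KO line 2 the reads antisense to MT-TS1 (-0.96, edgeR adjusted p = 0.0461) and to MT-TC (-1.70, 0.0357) fell, beside 1.43% of all genes. In KO_RES the other-strand share of MT-RNR1 was 31.9%, 39.3%, 39.1% and 38.3%, above all 4 controls at 2.79%, 12.98%, 26.8% and 13.2% (two-sided exact permutation p = 0.0286, 0.271 after adjustment over 19 ratios). The ratio of MT-RNR2 to MT-RNR1 reads on the own strand ranged from 5.84 to 13.5 in the controls and from 13.8 to 16.3 in KO, without overlap (exact permutation p = 0.0286, adjusted p = 0.543).

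The nuclear genes that transcribe, copy, process and translate mitochondrial RNA were read beside the mitochondrial ones. In KO against control, where 3.41% of all genes fell and 2.87% rose, none of the 10 genes of mitochondrial transcription tested was called, with a median log2 fold change of 0.07, and none of the 23 genes of RNA processing, with a median of 0.18. Of 15 genes of RNA stability and turnover 1 rose, the pyrimidine carrier SLC25A33 (0.86, edgeR adjusted p = 0.00749). Of 23 genes of mitochondrial DNA replication and maintenance, the deoxyguanosine kinase DGUOK (-0.47, 0.015) and the DNA polymerase POLG (-0.36, 0.0488) fell and the fusion protein MFN2 (0.48, 0.0455) rose. The 2 falls and 1 rise among 23 genes are too few to be told apart from the shares over all genes. The difference between these lists and the 13 mitochondrial mRNAs was not tested.

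Of 76 nuclear-encoded subunits of complexes I, III, IV and ATP synthase that were tested, the partners of the 13 mitochondrial subunits, 2 fell, NDUFB11 of complex I (-0.59, edgeR adjusted p = 0.00637) and COX6C of complex IV (-0.57, 0.0402), and none rose, with a median of 0.08. That is no larger a share than the 3.41% of all genes that fell. Among 75 proteins of the mitochondrial ribosome 1 rose, MRPS15 (0.60, 0.00595), and among 13 translation factors 1 rose, RMND1 (0.47, 0.0455). None of 4 complex II subunits, all nuclear-encoded, and none of 13 regulators of mitochondrial biogenesis was called. Of 10 mitophagy genes the receptor BNIP3 fell (-0.93, 0.0107) and the adaptor OPTN rose (0.47, 0.0315). Calls of 1 gene in a list are read against the same 3.41% and 2.87%. In KO_RES against KO no gene of these lists was called by edgeR, with the pair term or without it.

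Replication-dependent histone mRNAs, which like MT-ND6 lack a poly(A) tail, were read as a further list. Of 50 listed genes 21 had a row under their symbol and 19 of these were tested, so the list is incomplete. None was called in KO against control, with a median log2 fold change of -0.54, and the summed level of the 21 was 2134 to 2793 CPM in the controls, 1366 to 2044 CPM in KO and 937 to 2550 CPM in KO_RES. In this sum every KO library was below every control, though the highest KO library was close to the lowest control. Of all genes tested singly, 8.67% were lower in KO without overlap. The part of tail selection in the levels of MT-ND6 and the rRNAs was not tested.

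The nuclear lists were also read in number 2 against number 1, where 10.2% of all genes fell and 9.82% rose. Of the 10 transcription genes 5 fell and none rose, among them TFAM, which packs mitochondrial DNA and opens its promoters (log2 difference -0.39, edgeR adjusted p = 0.00742), and the mitochondrial RNA polymerase POLRMT (-0.30, 0.0305). The genes named in this paragraph were picked out with their values in view. The helicase TWNK, which unwinds mitochondrial DNA for replication, gave -0.59 (0.00195), and is 1 of 5 replication and maintenance genes of 23 that fell, while 1 rose. SLIRP, which stabilises mitochondrial mRNAs, gave -0.54 (0.00467) and was the only 1 of 15 stability and turnover genes that fell. Of 76 nuclear subunits tested 33 fell and 1 rose, with a median of -0.27, and of 75 ribosomal proteins 21 fell and none rose, with a median of -0.23, against a median of 0.02 over all genes. Of 23 processing genes 7 fell and of 13 translation factors 1 fell, and none of either rose. Of 10 mitophagy genes 3 rose and none fell, and of 13 biogenesis regulators 2 rose and 1 fell.

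Nuclear copies of mitochondrial genes could receive reads of the real ones. The tables listed 402 such pseudogenes, of which 315 had a count of 0 in all libraries. Their summed level was 15.3 to 32.6 CPM in the controls, 13.4 to 18.2 CPM in KO and 11.6 to 15.8 CPM in KO_RES, below MT-CO1, MT-CO3 and MT-ND1 in every library. The sum was above MT-ATP8, which ranged from 3.28 to 14.04 CPM, in every library. It was also above MT-ND6 in every library but KO_RES 2_1. The copies with most reads were those of MT-ND1 (MTND1P23, 4243 reads), MT-CO3 (MTCO3P12, 4065) and MT-CO1 (MTCO1P12, 2566), named by their count. Of the 5 that passed the filter none was called in KO against control.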

How the data were processed

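RNA of 12 libraries was read as counts per gene that the authors deposited, made with STAR 2.6.0b on GRCh37 per the submitters' processing notes. Trimming and filters are not given in the sources used here. Each table gives, after 4 lines of unassigned reads that stayed out of library sizes and tests (their largest parts, reads mapped to several places and reads in no gene, were 7.21% to 11.6% and 11.1% to 19.5% of all reads counted), unstranded counts and counts on either strand. Column 4 (own strand) was the main column and column 3 the other strand. Names, lengths, strands and sequences came from GENCODE release 29 on GRCh38, which matched all 37 genes, and no coordinates are given because the builds differ.

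Genes were tested with edgeR 4.0.16 in R 4.3.3 (filterByExpr, TMM scaling, quasi-likelihood test, Benjamini-Hochberg adjustment over all genes tested, threshold 0.05). The fit of the 3 groups held 19200 genes, that of the 5 groups by line 20559 and that of number 19766. CPM use the TMM-scaled totals of column 4 for both strands. Shares and ratios were compared between groups by two-sided exact permutation tests over libraries (scipy 1.17.1). Within pairs they were compared by exact permutation through sign flips of the log2 differences. The script was tested on simulated data. The members and gene lists were chosen with earlier results of these data known. All mRNAs and rRNAs were named, tRNA genes where a group mean reached 1 CPM, and of each nuclear list up to 4 genes called in KO against control, or in KO_RES against KO with the pair block, with the smallest adjusted p. Nuclear genes named by library number, and hepatocyte markers, were picked with their values in view. KO and KO_RES libraries of equal line and number deviated together from their group means (correlation 0.778, 0.829, 0.849 and 0.767), so a fit with that pair as a block was run. The pairing comes from the titles. Other alternatives were DESeq2 1.42.0, RLE scaling, scaling without mitochondrial genes, no filter, unstranded counts, groups by the genotype field and leaving out libraries.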

Additional observations from a re-analysis of the deposited data

Results flagged for a closer look

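The antisense rRNA reads differed in their number effect between the groups: the log2 difference of number 2 from number 1 was larger in KO than in KO_RES by 3.27 for MT-RNR1 and by 2.58 for MT-RNR2, by the test of that difference given above, which was chosen after seeing the data. In control 1, MT-RNR1 on its own strand stood at 402 CPM, apart from the other 3 control libraries by more than Dixon's 95% limit for 4 values. In KO 1_1, MT-ND4L, a small membrane subunit of complex I, stood at 34.0 CPM, apart from the other 3 KO libraries by the same measure. Over 66 groups of 4 that were examined this way, 2 stood out, and chance flags about 1 in 20.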

How the results depend on the processing

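The comparisons with the controls changed with the controls used. Without controls 1 and 2, the number of members called against the controls went from 2 to 0 in KO, from 3 to 0 in KO_RES and from 0 to 1 in KO line 1. The gene and the direction of that 1 call are not given here. The median log2 fold change of the 13 mRNAs was then -0.23 in KO, -0.34 in KO_RES, 0.00 (0.002) in line 1 and -0.50 in line 2. Leaving out controls 1 and 2 reversed MT-ND1 (0.33), MT-RNR1 (0.072) and MT-RNR2 (0.64) in KO, MT-RNR2 in KO_RES (0.089) and the log2 difference of the rRNA share (0.53 in KO, 0.086 in KO_RES). Without controls 3 and 4, 14 members were called in KO, 15 in KO_RES, 16 in line 1 and 17 in line 2, with medians of -1.20, -1.41, -1.02 and -1.49, and the rRNA to mRNA ratio of KO_RES reversed (-0.035). The cause was not tested.

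Apart from the replicate block, the share of all genes called is not given for the alternative fits of this section. Their counts of members therefore show only how the calls moved. DESeq2 called 9 members in KO, 13 in KO_RES, 9 in line 2 and 4 on the other strand by number. Groups by the genotype field gave 4 in KO and 7 in KO_RES. Using only libraries whose title and genotype field agree, or fitting only the groups compared, gave 0 in both, with fewer libraries in the fit. Other-strand calls by number were 4 with column 4 library sizes, and only the 4 KO_RES libraries gave 0 on either strand, where the other-strand differences were 0.085 for MT-RNR1 and 0.219 for MT-RNR2. With unstranded counts the rRNA share in KO reversed to a log2 difference of 0.029.

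Leaving out 1 library at a time gave 0 to 5 members called in KO, 0 to 10 in KO_RES, 1 to 7 by number and 0 to 8 on the other strand by number. It reversed MT-RNR2 in KO (-0.61 to 0.23, positive without control 1). As log2 differences it reversed the rRNA share in KO (-0.42 to 0.24, with 0.235 without control 1, 0.008 without KO 2_1 and 0.036 without KO 2_2), the mRNA share of KO_RES against KO (-0.19 to 0.01, 0.005 without KO_RES 2_1), and the MT-ND6 ratio in KO (-0.23 to 0.07, 0.069 without KO 1_2) and in KO_RES (-0.01 to 0.29, -0.007 without KO_RES 2_1). The other-strand percent of KO_RES against KO also reversed without KO 1_1, at MT-RNR1 (-0.11 to 0.89, lowest -0.111) and at MT-RNR2 (-0.06 to 1.08, lowest -0.063).

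With the replicate block (line and number as a pair), KO_RES against KO had 0 members called and a median of -0.14 for the 13 mRNAs. The log2 difference in the share of the 37 genes was -0.15 (exact sign-flip permutation test, adjusted p = 0.667). The block changed no call of a member. Depth limits the tRNA genes, of which 11 never exceeded 3 counts in a library. Intervals were not formed over reads, and the 4 libraries of a group set the precision of the abundant mRNAs.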
